A study of Homo sapiens with 6 samples.

Results

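The 10 genes described here encode the receptors, regulators, adaptor, kinases and transcription factor of cytosolic and endosomal RNA sensing, together with the editing enzyme that limits it. They are DDX58 (RIG-I), IFIH1 (MDA5), DHX58 (LGP2), TLR3, TRIM25, MAVS, TBK1, IKBKE, IRF3 and ADAR. They were taken by gene symbol, and each had 1 row in the table of 58825 genes. The study asked which splicing events depend on PTBP1, an RNA-binding splicing regulator, and sequenced the poly(A) RNA of MHCC97H, an established human hepatocellular carcinoma line. Of its 6 libraries, 3 were labelled shControl with the genotype WT and 3 were labelled shPTBP1 with the genotype PTBP1 Knockdown, and a short hairpin RNA was therefore used in both groups. All 6 came from this 1 line, the hairpin used for the shPTBP1 libraries was not named, and the labels did not say whether libraries of a group were separate cultures, so that p-values measure only the spread between these libraries, which may be technical.

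Cytosolic RNA sensing begins with 3 helicases of 1 family. RIG-I recognises short double-stranded RNA with a 5′ triphosphate, MDA5 recognises long double-stranded RNA, and LGP2, which lacks the caspase recruitment domains needed for signalling, tunes the other two. Activated RIG-I and MDA5 engage MAVS on the mitochondrial outer membrane, and the kinases TBK1 and IKBKE then phosphorylate IRF3, which moves into the nucleus and turns on interferon and chemokine genes. TLR3 binds double-stranded RNA in endosomes and reaches the same kinases through the adaptor TICAM1. ADAR converts adenosine to inosine in double-stranded RNA and so keeps the cell's own transcripts from being read as foreign. DDX58, IFIH1, DHX58, TLR3, TRIM25, IKBKE and ADAR are themselves known as interferon-inducible genes, whereas IRF3, TBK1 and MAVS are generally made at a steady level.

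PTBP1 itself had 21.17, 16.40 and 27.36 FPKM (fragments per kilobase of transcript and per 1e6 fragments) in shControl 1, 2 and 3, and 17.26, 16.90 and 17.96 FPKM in shPTBP1 1, 2 and 3. The values overlapped, and the log2 fold change was -0.29 (SE 0.18, adjusted p = 0.953 by edgeR). The study reports checking PTBP1 knockdown in MHCC97H by western blot and RT-qPCR, which was not re-examined here. As PTBP1 RNA was not clearly lower in these libraries, every direction below is one between libraries as labelled. PTBP2, the neuronal paralog that PTBP1 is known to hold low by way of exon skipping, had 2.01, 1.88 and 0.61 FPKM in the shControl libraries and 3.80, 4.06 and 3.21 FPKM in the libraries labelled shPTBP1. These groups did not overlap, with a log2 fold change of 1.32 (SE 0.41, unadjusted p = 0.0152 and adjusted p = 0.718 by edgeR).

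The libraries held between 68704509 and 85317970 counts. A floor of 3 counts stood for 0.0352 to 0.0437 counts per 1e6 counts (CPM), for counting error only. Of 15 hepatocyte markers, only KRT8 and KRT18 reached 1 FPKM in every library, and 8, including ALB, AFP, TTR and APOB, were listed at 0 in all of them. The summed level of 10 red-cell markers was 758 to 1273 CPM in the libraries numbered 1 and 2 of both labels and 1.13 to 1.35 CPM in those numbered 3, and 11 neutrophil and monocyte markers gave 23.3 to 39.6 CPM against 0.174 to 0.217 CPM. The lymphocyte list gave 4.30 to 8.09 CPM in numbers 1 and 2 and 1.77 to 4.12 CPM in number 3. The plasmacytoid dendritic cell list gave 9.72 to 43.8 CPM over the 6 libraries, and its defining marker, CLEC4C, was at 0. By label, the red-cell sum ranged from 1.35 to 1273 CPM in shControl and from 1.13 to 843 CPM in shPTBP1. The red-cell sum and the neutrophil and monocyte sum were thus higher in numbers 1 and 2 than in number 3 for each label. So was the lymphocyte sum, by a smaller margin, while the plasmacytoid dendritic cell sums overlapped between the numbers. The part of these transcripts in the results below was not tested.

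The RNA-sensing genes that are induced by interferon can carry repeats of GAAA in their promoters, the letters bound by IRF family complexes. The promoters of 8 of the 10 genes were read from RefSeq (GRCh38.p14) over a window from 250 bases before to 50 bases after the annotated start, and both strands were searched for 2 copies of GAAA separated by 2 bases of any kind. This motif was present in IFIH1 and TLR3, against 4.38% of all 27305 genes in the promoter table. A search with a shorter spacing, GAAANGAAA, was added after the promoters had been seen and gave DDX58 and TRIM25, against 3.87% of all genes. Matches of the 2 spellings may overlap within longer repeats. Stretches of up to 40 bases on each side of these matches are shown because they belong to the receptors on which the comparison turns and to 2 genes that stayed level or low. They are written 5′ to 3′ on the strand of the gene, with the match in capitals, and where the capitals begin with TTTC the match is on the opposite strand.
DDX58, chr9:32526351-32526439, minus strand, match at 203 to 195 bases before the start: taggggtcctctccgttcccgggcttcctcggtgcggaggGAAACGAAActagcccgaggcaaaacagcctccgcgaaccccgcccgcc
IFIH1, chr2:162318788-162318883, minus strand, 2 overlapping matches at 159 to 144 bases before the start: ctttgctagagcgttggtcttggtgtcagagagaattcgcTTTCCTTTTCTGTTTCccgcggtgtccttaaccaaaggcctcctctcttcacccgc
IFIH1, chr2:162318685-162318745, minus strand, match at 21 to 12 bases before the start: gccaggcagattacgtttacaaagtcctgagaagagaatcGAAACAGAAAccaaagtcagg
TRIM25, chr17:56914044-56914092, minus strand, match from 3 bases before the start to base 6 after it: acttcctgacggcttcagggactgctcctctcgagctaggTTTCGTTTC
TLR3, chr4:186069112-186069161, plus strand, match from 4 bases before the start to base 6 after it: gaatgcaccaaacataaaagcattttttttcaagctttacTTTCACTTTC

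IFIH1 thus held 3 matches in 2 places, and the DDX58 match lay farthest from its start. The promoters of MAVS, TBK1, IKBKE and ADAR held neither spelling in this window. Among 103 other genes of the pathway that were in the promoter table, 22 (21.4%) held the spelling with 2 bases between the copies, among them EIF2AK2, OAS3, ISG15, IFIT1 and IFIT3, and 11 (10.7%) held GAAANGAAA, among them OAS1, OAS3 and IFIT3. A match is a description of letters and not of binding.

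All 10 genes were expressed above the filter of the count test, over a wide range of levels. By mean FPKM over the 6 libraries, ADAR was highest at 31.1 ± 5.39 (SD, n = 6) and TRIM25 followed at 13.9 ± 0.706. MAVS (7.62 ± 2.07), IRF3 (7.50 ± 1.59), TBK1 (5.96 ± 0.812), IFIH1 (5.67 ± 2.46) and DDX58 (4.18 ± 1.99) lay close together, with IKBKE below them at 2.16 ± 0.434. DHX58 (0.368 ± 0.262) and TLR3 (0.128 ± 0.0306) were the lowest. The ranges of ADAR and TRIM25 overlapped neither each other nor that of the next gene, and IKBKE stood clear of DHX58, whereas each gene from MAVS down to IKBKE overlapped its neighbour in this order, as did DHX58 and TLR3. Among the 19393 genes tested, ADAR was at the 93.5 percentile of mean FPKM, IFIH1 at the 68.7, DDX58 at the 62.6 and TLR3 at the 11.3 percentile.

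**Figure D1:**
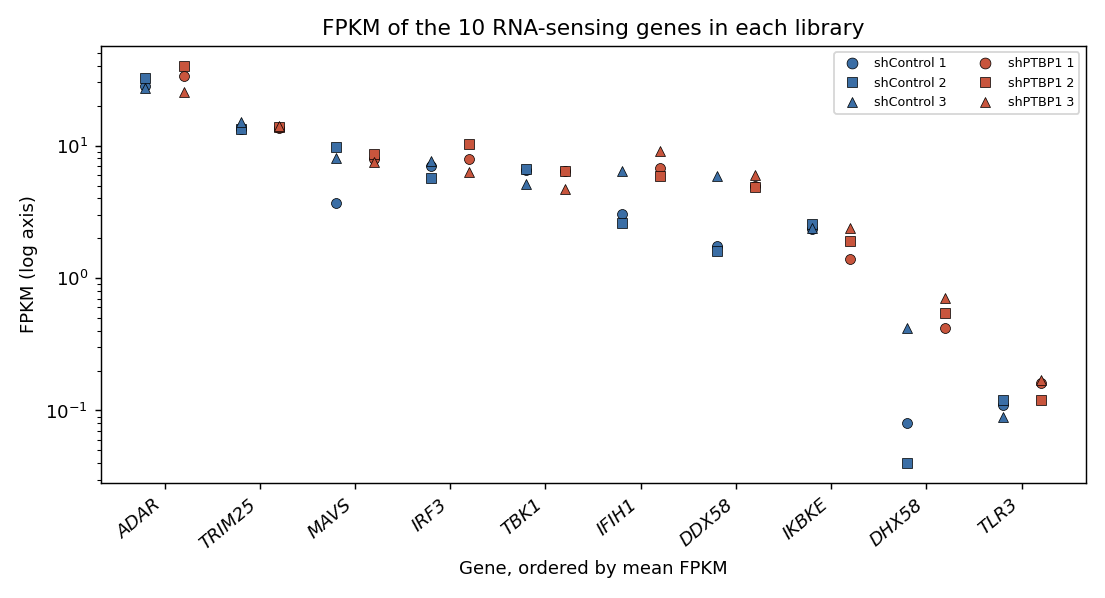
FPKM (log axis) of each RNA-sensing gene in each library, ordered by mean FPKM, with shControl libraries in blue and shPTBP1 libraries in red and 1 marker shape per library number. ADAR lies between 25.54 and 40.08 FPKM in every library, while DDX58, IFIH1 and DHX58 show shControl 1 and 2 well below shControl 3.

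The 3 helicase receptors were the most uneven of the 10 genes across libraries. The SD of log2 CPM over the 6 libraries was 1.55 for DHX58, 0.88 for DDX58 and 0.72 for IFIH1, at the 95.4, 86.2 and 80.6 percentiles of all genes tested. MAVS followed at 0.49, and the remaining 6 genes lay between 0.06 and 0.37. TRIM25 was the most even, at the 1.20 percentile, with 1.14-fold between its lowest and highest FPKM against 17.8-fold for DHX58, 3.76-fold for DDX58 and 3.51-fold for IFIH1.

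**Figure D2:**
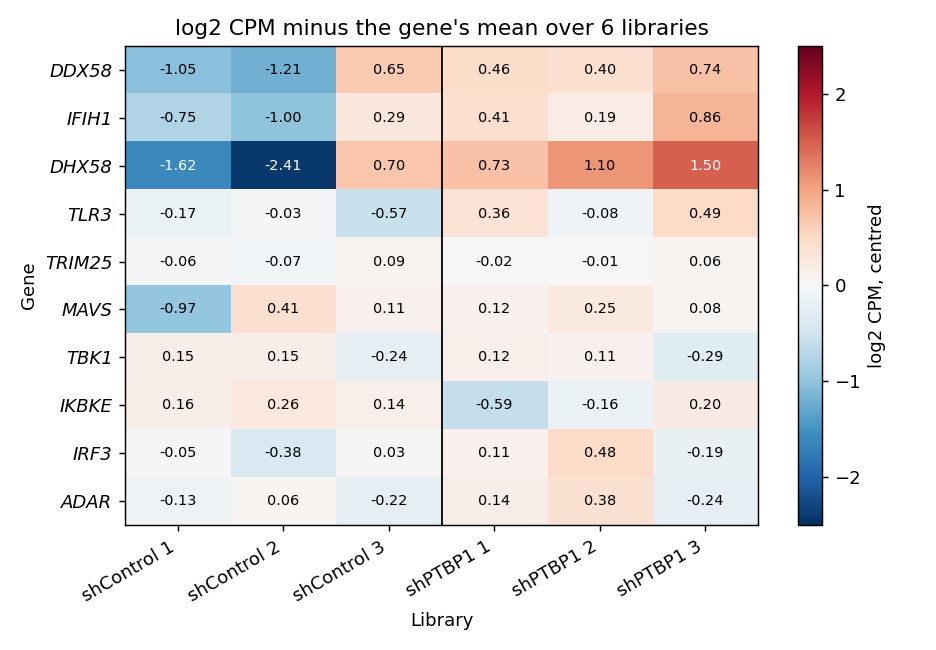
Log2 CPM of each gene minus its mean over the 6 libraries, with the value printed in each cell and shControl to the left of the line. DDX58, IFIH1 and DHX58 are below their means in shControl 1 and 2 (-0.75 to -2.41) and above them in the other 4 libraries.

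DDX58 encodes RIG-I and lies on the minus strand of chromosome 9 from 32455302 to 32526208 in hg38. Its level was 1.76, 1.59 and 5.90 FPKM in shControl 1, 2 and 3 and 4.99, 4.83 and 5.98 FPKM in shPTBP1 1, 2 and 3. shControl 1 and 2 were low, and shControl 3 was within the range of the libraries labelled shPTBP1, so that the groups overlapped. The group means were 3.08 ± 2.44 FPKM in shControl and 5.27 ± 0.623 FPKM in shPTBP1 (SD, n = 3 each), and the log2 fold change was 0.81 (SE 0.49, adjusted p = 0.953 by edgeR). In such bulk RNA, fewer cells that express a gene and less of its RNA per cell cannot be told apart.

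IFIH1, which encodes MDA5, lies on the minus strand of chromosome 2 from 162267074 to 162318703. It had 3.06, 2.61 and 6.49 FPKM in the shControl libraries and 6.80, 5.88 and 9.16 FPKM in the libraries labelled shPTBP1. As for DDX58, the first 2 shControl libraries were the lowest, and shControl 3 lay between shPTBP1 2 and shPTBP1 1. The means were 4.05 ± 2.12 and 7.28 ± 1.69 FPKM (SD, n = 3 each), with a log2 fold change of 0.88 (SE 0.36). This was the smallest p-value among the 10 genes, 0.0418 unadjusted and 0.870 after adjustment over all genes tested by edgeR.

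DHX58, which encodes LGP2, lies on the minus strand of chromosome 17 from 42101404 to 42112714 and was measured at low counts. Its counts were 26, 19 and 134 in shControl and 154, 194 and 238 in shPTBP1, or 0.08, 0.04 and 0.42 FPKM against 0.42, 0.54 and 0.71 FPKM. shControl 3 and shPTBP1 1 were equal in FPKM and nearly so in CPM, and the other shControl libraries were far below both. The log2 fold change was 1.64 (SE 0.77, adjusted p = 0.898 by edgeR), the largest of the 10 genes and the least precise. By CPM, DHX58 was the 1 gene of the 10 with all libraries labelled shPTBP1 above all shControl libraries, an order held by 6.49% of the genes tested. None of the 10 genes had the reverse order, held by 5.46%.

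DDX58 and IFIH1 varied less relative to each other than relative to TRIM25, ADAR or DHX58. IFIH1 was at 1.10 to 1.74 times the FPKM of DDX58 in the 6 libraries, and DDX58 at 8.42 to 39.75 times that of DHX58. TRIM25 was at 7.56 and 8.41 times the FPKM of DDX58 in shControl 1 and 2, but at 2.37 to 2.87 times in the other 4 libraries. ADAR was at 15.9 and 20.3 times DDX58 in shControl 1 and 2 and at 4.27 to 8.30 times elsewhere, and its ratio to IFIH1 was 9.16 and 12.4 against 2.79 to 6.82. ADAR spanned only 1.57-fold in FPKM over the 6 libraries, against 3.76-fold for DDX58 and 3.51-fold for IFIH1. Its high ratios in shControl 1 and 2 thus mainly restate the low receptor values there.

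TLR3, the endosomal receptor of double-stranded RNA, lies on the plus strand of chromosome 4 from 186069152 to 186088069. Its counts were 61, 85 and 48 in shControl and 102, 74 and 102 in shPTBP1, corresponding to 0.11, 0.12 and 0.09 FPKM and to 0.16, 0.12 and 0.17 FPKM. The groups overlapped at shControl 2 and shPTBP1 2, and shControl 3, high for the helicases, was the lowest library for TLR3. The log2 fold change was 0.52 (SE 0.32, adjusted p = 0.953 by edgeR).

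TRIM25, the ubiquitin ligase linked to RIG-I activation, lies on the minus strand of chromosome 17 from 56836387 to 56914080. It had 13.30, 13.37 and 15.20 FPKM in shControl and 13.62, 13.84 and 14.18 FPKM in the libraries labelled shPTBP1. The values were nearly flat, with shControl 1 and 2 the lowest by a small margin. The log2 fold change was 0.02 (SE 0.10, adjusted p = 0.995 by edgeR). TRIM25 shares 29690 bases with DGKE on the opposite strand, which had 0.38 to 1.51 FPKM, and whether reads were counted by strand is not given in the sources used here.

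MAVS, the mitochondrial adaptor of both signalling helicases, lies on the plus strand of chromosome 20 from 3846799 to 3876123. It had 3.71, 9.77 and 8.11 FPKM in shControl and 7.86, 8.71 and 7.54 FPKM in shPTBP1. shControl 1 alone was low, and the other 5 libraries lay within 7.54 to 9.77 FPKM. The log2 fold change was 0.19 (SE 0.31, adjusted p = 0.982 by edgeR) and was -0.12 without shControl 1, so that this library set its sign.

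TBK1 and IKBKE encode the kinases of IRF3. TBK1, on the plus strand of chromosome 12 from 64452092 to 64502086, had 6.51, 6.62 and 5.15 FPKM in shControl and 6.38, 6.39 and 4.72 FPKM in shPTBP1. Its lowest value in each label was that of the library numbered 3, and the log2 fold change was -0.04 (SE 0.17, adjusted p = 0.995 by edgeR). IKBKE, on the plus strand of chromosome 1 from 206470476 to 206496889, had 2.35, 2.56 and 2.39 FPKM in shControl and 1.40, 1.9 and 2.38 FPKM in the libraries labelled shPTBP1. Here the first 2 libraries labelled shPTBP1 were low and the third reached the shControl values, with a log2 fold change of -0.33 (SE 0.22, adjusted p = 0.953 by edgeR). TBK1 exceeded IKBKE in every library, by 2.15 to 2.77 times in FPKM in shControl, by 4.56 and 3.36 times in shPTBP1 1 and 2 and by 1.98 times in shPTBP1 3.

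IRF3, the transcription factor of the pathway, lies on the minus strand of chromosome 19 from 49659569 to 49665875. It had 7.05, 5.72 and 7.71 FPKM in shControl and 7.91, 10.26 and 6.33 FPKM in shPTBP1. The groups overlapped, with the highest value in shPTBP1 2. The log2 fold change was 0.28 (SE 0.20, adjusted p = 0.953 by edgeR). IRF3 overlaps BCL2L12 on the opposite strand over 734 bases, and BCL2L12 was at a like level of 6.51 to 8.13 FPKM.

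ADAR, which edits double-stranded RNA, lies on the minus strand of chromosome 1 from 154582057 to 154628013. It had 28.02, 32.33 and 27.14 FPKM in shControl and 33.71, 40.08 and 25.54 FPKM in the libraries labelled shPTBP1. shPTBP1 held both the highest and the lowest library. The means were 29.2 ± 2.78 and 33.1 ± 7.29 FPKM (SD, n = 3 each), and the log2 fold change was 0.21 (SE 0.17, adjusted p = 0.960 by edgeR). The values are of the gene as a whole and do not separate its constitutive from its interferon-inducible isoform.

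Over all 6 libraries, none of the 10 genes passed an adjusted p of 0.05 in edgeR, where 0.0309% of the genes tested did (6 of 19393). At an unadjusted p under 0.05 the count was 1 of 10, IFIH1, against 5.69% of the genes tested, and DESeq2 likewise called 0 after adjustment and counted 3 before it, against 0.743% and 4.42% of the genes it tested. The log2 fold change was above 0 for 8 of the 10 genes, against 48.0% of all genes, and its median was 0.25, against -0.01 over all genes. shControl 1 and 2 were the 2 lowest libraries for 4 of the 10 genes, DDX58, IFIH1, DHX58 and TRIM25, an order found in 16.4% of the genes tested. This order was picked from the values of these same genes, so that its count is a description and not a test.

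The comparison was repeated on subsets of the libraries, and the test of a difference between library numbers, given below, called none of the 10 genes. Within the libraries numbered 1 and 2 alone (2 of each label), DDX58 rose in the libraries labelled shPTBP1 by 1.56 on the log2 scale (SE 0.14, adjusted p = 0.0483 by edgeR), the 1 call among the 10 genes, against 0.319% of the 19733 genes tested in either direction and 0.238% that rose. DHX58 was at 2.89 (SE 0.42, adjusted p = 0.0889) and IFIH1 at 1.17 (SE 0.16, adjusted p = 0.0815) in the same fit by edgeR, neither past the threshold. At an unadjusted p under 0.05, 5 of the 10 genes were counted there, against 17.7% of all genes. DDX58, IFIH1, DHX58 and IRF3 (log2 fold change 0.51) were higher in the libraries labelled shPTBP1, and IKBKE (-0.56) was lower.

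With only shControl 3 left out, DDX58 rose by 1.67 on the log2 scale (SE 0.16, adjusted p = 0.0306) and DHX58 by 3.11 (SE 0.41, adjusted p = 0.0469) in edgeR, which made 2 calls among the 10 genes against 0.674% of the 20167 genes tested in either direction and 0.565% that rose. At an unadjusted p under 0.05 the count was 3 of 10, against 16.6% of all genes. IFIH1 was at 1.38 (SE 0.23, adjusted p = 0.0781 by edgeR). Both subsets drop shControl 3, the control library nearest to shPTBP1 in the helicases, so that larger differences follow from the choice. Without shControl 1 instead, DDX58 was at 0.54 (adjusted p = 0.9997) and DHX58 at 1.29 in edgeR. Without shControl 2 they were at 0.50 (adjusted p = 0.9992) and 1.18 in edgeR, and 0 of the 10 genes passed in either fit. The median log2 fold change of the 10 genes was 0.30 in the libraries numbered 1 and 2 and 0.32 without shControl 3, against 0.00 over all genes in both.

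In the libraries numbered 3, which give no test, the log2 ratio of shPTBP1 3 to shControl 3 in CPM was 0.09 for DDX58, 0.56 for IFIH1 and 0.80 for DHX58. The ratio was 1.06 for TLR3, at the low counts given above, and between -0.21 and 0.06 for MAVS, TRIM25, TBK1, IKBKE, IRF3 and ADAR. The third libraries were thus near equal in DDX58, whereas the values of IFIH1 and DHX58 were higher in shPTBP1 3. The difference of the label effect between number 3 and numbers 1 and 2, a test added after the data had been seen, was -1.47 on the log2 scale for DDX58 (unadjusted p = 0.00166, adjusted p = 0.137 by edgeR). It was -2.09 for DHX58 (adjusted p = 0.229) and -0.60 for IFIH1 (adjusted p = 0.328) in edgeR. None of the 10 genes passed the threshold, against 0.0103% of all genes. shControl 3 thus differed from shControl 1 and 2 in the level of the helicases by more than the libraries labelled shPTBP1 differed among themselves, and as it is 1 library, the library and its number cannot be told apart.

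**Figure D3:**
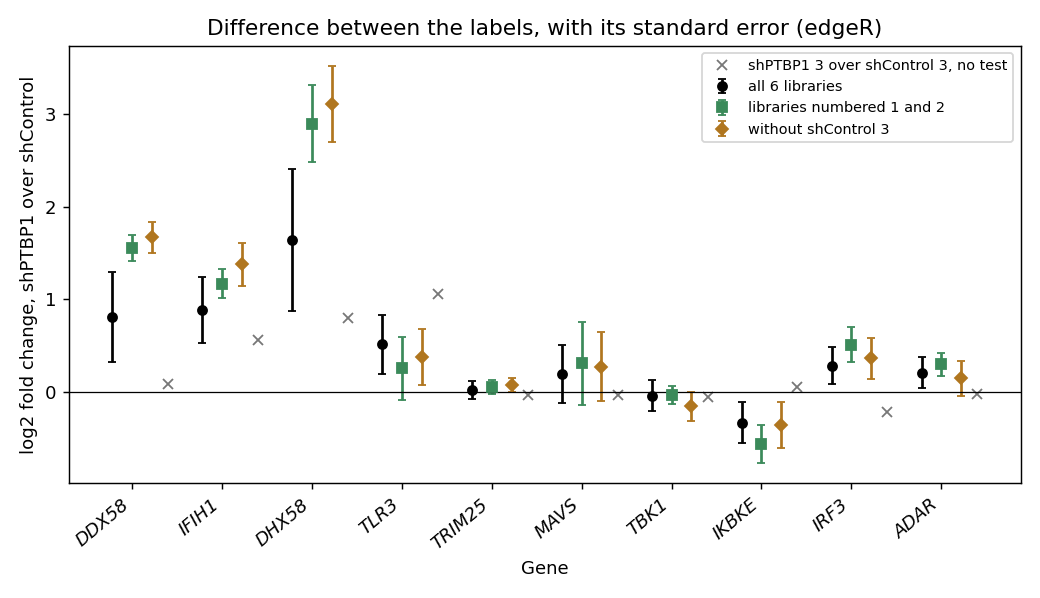
Log2 fold change of the libraries labelled shPTBP1 over shControl for each gene, with SE bars from edgeR, over all 6 libraries (black), the libraries numbered 1 and 2 (green) and without shControl 3 (brown), and the untested ratio of the third libraries as grey crosses. DDX58 moves from 0.81 to 1.56 and 1.67 while its cross is at 0.09, and TRIM25 and TBK1 stay between -0.16 and 0.07 in all 4.

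The wider pathway was read from 9 lists of 137 symbols, of which 136 were in the table and 121 passed the filter on low counts. USP3 was not analysed here. None of the 121 genes passed the adjusted threshold over all 6 libraries in edgeR. At an unadjusted p under 0.05, 3 were higher, among them CTSL and IFIT3, against 3.58% of all genes tested, and 2 were lower (TRIM65 and CXCL8), against 2.11%, while 64 of the 121 had a positive log2 fold change with a median of 0.02. By CPM, 9 of the 121 had all libraries labelled shPTBP1 above all shControl libraries, against 6.49% of all genes tested. The reverse held for 5, against 5.46%, so that groups without overlap were about as common as among all genes. Of the 121, 36 had shControl 1 and 2 as their 2 lowest libraries, an order found in 16.4% of all genes tested, and this is the share to set beside the counts of the separate lists below. As the order was taken from the helicase values in these same libraries, such counts describe the lists and test nothing.

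Among 14 other RNA sensors and effectors tested, 7 had shControl 1 and 2 lowest, the pattern of DDX58. OASL, a 2′-5′-oligoadenylate synthetase-like protein that binds RIG-I, had 4.29, 4.30 and 26.57 FPKM in shControl and 24.63, 22.59 and 22.80 FPKM in the libraries labelled shPTBP1. OAS1, which senses double-stranded RNA and activates RNase L, had 0.37, 0.38 and 3.88 FPKM against 2.56, 2.28 and 4.34 FPKM. Within the libraries numbered 1 and 2 OASL rose by 2.47 (adjusted p = 0.0352) and OAS1 by 2.67 (adjusted p = 0.0384) on the log2 scale in edgeR, and OAS3 and DDX60 were called there too, all 4 named after their values were seen. Over all 6 libraries the adjusted p of OASL, OAS1, OAS3 and DDX60 was 0.953, 0.966, 0.976 and 0.966 by edgeR. EIF2AK2, the kinase PKR, differed less: 11.39, 12 and 13.57 FPKM against 14.97, 13.65 and 13.97 FPKM, without overlap by a narrow margin and with a log2 fold change of 0.23 (SE 0.10, adjusted p = 0.891 by edgeR). The helicase DHX33 was the reverse, at 15.11, 17.83 and 13.71 FPKM in shControl and 12.68, 12.30 and 12.76 FPKM in shPTBP1 (log2 fold change -0.28, adjusted p = 0.895 by edgeR).

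Among the 15 cofactors and ubiquitin regulators, TRIM65, a ubiquitin ligase of MDA5, had 13.55, 13.21 and 11.32 FPKM in shControl and 9.29, 9.91 and 10.09 FPKM in shPTBP1. The groups did not overlap, and the log2 fold change was -0.35 (SE 0.12, unadjusted p = 0.0207 and adjusted p = 0.767 by edgeR), opposite in sign to that of IFIH1. PPP1CA, a phosphatase that acts on the signalling domains of RIG-I and MDA5, had a log2 fold change of 0.24 (adjusted p = 0.948 by edgeR). Only 1 of these 15 regulators, RNF122, had shControl 1 and 2 lowest.

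The 21 shared adaptors and kinases had a median log2 fold change of -0.06, with 7 above 0 and none at an unadjusted p under 0.05. TICAM1, the adaptor that TLR3 uses, had 11.16, 9.31 and 7.84 FPKM in shControl and 8.16, 7.81 and 7.08 FPKM in shPTBP1 (log2 fold change -0.27, adjusted p = 0.953 by edgeR). IKBKB, the NF-kB kinase subunit, was at 0.20 (adjusted p = 0.953 by edgeR). Of 15 IRF and NF-kB factors, none was at an unadjusted p under 0.05. RELB was at -0.45 (adjusted p = 0.953 by edgeR) and ATF2 at 0.28 (adjusted p = 0.948 by edgeR), and the median of the list was -0.05.

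The 15 genes of RNA editing, decay and processing around ADAR had a median log2 fold change of 0.03, and none was at an unadjusted p under 0.05. DICER1, which cleaves double-stranded RNA, was at 0.27 and SUPV3L1, a mitochondrial RNA helicase, at -0.24 (adjusted p = 0.953 for each by edgeR). The endosomal list around TLR3 held CTSL, a lysosomal protease that processes endosomal Toll-like receptors. CTSL had 96.96, 89.85 and 101.43 FPKM in shControl and 139.00, 133.03 and 140.02 FPKM in the libraries labelled shPTBP1. The groups stood well apart at every number, with a log2 fold change of 0.54 (SE 0.09, adjusted p = 0.246 by edgeR, and 0.0279 by DESeq2). LGMN, another such protease, had 8.71, 8.59 and 15.75 FPKM against 15.26, 13.62 and 14.93 FPKM (log2 fold change 0.44, SE 0.23, adjusted p = 0.948 by edgeR), and without shControl 3 it rose by 0.77 on the log2 scale (adjusted p = 0.0476 by edgeR).

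RNA of the interferon genes themselves was at or near 0. Of 12 interferon genes, 6 (IFNA2, IFNA5, IFNK, IFNL2, IFNL3 and IFNL4) had no count in any library. IFNB1, the main target of IRF3 among them, had 0, 0 and 0 counts in shControl and 0, 4 and 4 in shPTBP1, and IFNL1 had 0, 0 and 6 against 0, 0 and 4. IFNA1 had 4, 0 and 2 counts in each label, IFNA13 had 4, 0 and 2 against 0, 0 and 2, and IFNW1 had 4 counts in shPTBP1 3 alone. These numbers are too low to compare between labels. IFNE alone passed the filter, with 56, 28 and 61 counts against 51, 30 and 37 and a log2 fold change of -0.37 (adjusted p = 0.982 by edgeR).

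Of 12 genes tested among the interferon receptors, JAK-STAT and ISGF3, 5 had shControl 1 and 2 lowest, among them IRF9. The median log2 fold change of these 12 was 0.003, with 6 above 0. IRF9, the DNA-binding subunit of ISGF3, had 1.33, 1.71 and 4.95 FPKM in shControl and 3.80, 4.23 and 4.84 FPKM in shPTBP1, with a log2 fold change of 0.72 (SE 0.46, adjusted p = 0.953 by edgeR) over all 6 libraries. Without shControl 3, its high control library, IRF9 rose by 1.51 on the log2 scale (adjusted p = 0.0431 by edgeR). Within the libraries numbered 1 and 2 it rose by 1.40 (adjusted p = 0.0777 by edgeR). Of 15 first-wave targets of IRF3, 11 had shControl 1 and 2 lowest, and the median log2 fold change was 0.37.

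IFIT3, an antiviral gene induced by IRF3, had 10.74, 7.59 and 24.77 FPKM in shControl and 27.32, 25.57 and 39.03 FPKM in the libraries labelled shPTBP1. Its groups did not overlap (log2 fold change 1.13, SE 0.42, unadjusted p = 0.0311 and adjusted p = 0.826 by edgeR), and with shControl 3 left out this became 1.76 (adjusted p = 0.0637 by edgeR). CXCL8, a chemokine under NF-kB control, lay in the other direction, at 1.42, 2.07 and 5.33 FPKM against 0.99, 0.73 and 1.36 FPKM (log2 fold change -1.47, SE 0.51, unadjusted p = 0.0226 and adjusted p = 0.781 by edgeR), and with shControl 3 left out this became -0.74 (adjusted p = 0.323 by edgeR). CCL5 had 2.18, 1.28 and 27.10 FPKM in shControl and 18.41, 17.37 and 19.94 FPKM in shPTBP1, so that shControl 3 exceeded every library labelled shPTBP1. Within the libraries numbered 1 and 2, CCL5 rose by 3.37, ISG15 by 2.16, IFIT2 by 1.76 and IFIT1 by 1.58 on the log2 scale (adjusted p = 0.0483, 0.0409, 0.0384 and 0.0384 by edgeR), named after their values were seen. In the same order, their adjusted p over all 6 libraries was 0.978, 0.953, 0.895 and 0.953 by edgeR. In all, 8 of the 121 genes were called in the libraries numbered 1 and 2, against 0.319% of all genes tested there, and 11 without shControl 3, against 0.674%, each of them higher in the libraries labelled shPTBP1. Both subsets drop shControl 3, in which genes such as CCL5 were high, so that larger differences follow from the choice. No pathway gene was called by edgeR when any other library was left out, or with number 3 as a covariate.

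**Figure D4:**
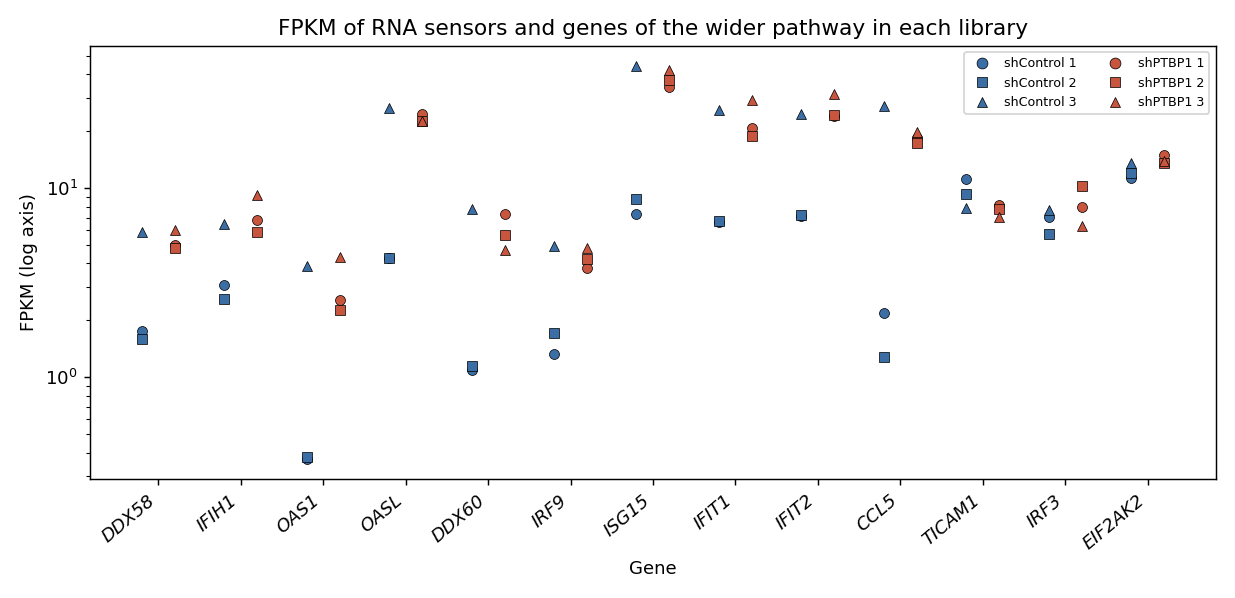
FPKM (log axis) in each library of DDX58, IFIH1, IRF3 and 10 genes of the wider pathway, with shControl libraries in blue and shPTBP1 libraries in red and 1 marker shape per library number. OAS1, OASL, DDX60, IRF9, ISG15, IFIT1, IFIT2 and CCL5 show shControl 1 and 2 low and shControl 3 near the libraries labelled shPTBP1, whereas TICAM1, IRF3 and EIF2AK2 span a narrow range.

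The library patterns of the 2 signalling helicases were compared with those of 11985 genes with a mean of at least 1 FPKM, by the root mean square difference of centred log2 CPM over the 6 libraries. The nearest to DDX58 were IFI16 (0.108), IFIT1 (0.119), SAMD9L (0.129), IFIT2 (0.139) and IRF9 (0.167). IFI16, a sensor of DNA, had 1.17, 1.09 and 3.63 FPKM in shControl and 3.77, 2.99 and 4.33 FPKM in the libraries labelled shPTBP1. The nearest to IFIH1 were CASP1 (0.149), PTGS2 (0.158), PRR13 (0.158), A2M-AS1 (0.170) and SLC25A21-AS1 (0.171). CASP1, the inflammasome protease, had 0.63, 0.54 and 1.31 FPKM against 1.05, 1.23 and 1.74 FPKM, and PTGS2, the inducible cyclooxygenase, had 2.03, 2.00 and 3.86 FPKM against 3.84, 3.26 and 5.80 FPKM. In each of these the first 2 shControl libraries were the lowest, which follows from their being picked for likeness to DDX58 or IFIH1. The lists of 5 shared no gene. Among the 10 genes, the closest pairs were TBK1 with ADAR (0.163), IRF3 with ADAR (0.210) and DDX58 with IFIH1 (0.233). The measure is not scaled, so that genes that vary little come out close whatever their pattern. The SD of log2 CPM was 0.21 for TBK1, 0.24 for ADAR and 0.29 for IRF3, against 0.88 for DDX58 and 0.72 for IFIH1.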

How the data were processed

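RNA of MHCC97H cells was analysed in 6 libraries, 3 labelled shControl and 3 labelled shPTBP1. The authors' notes name cutadapt 1.9, FastQC, HISAT2 2.2.1, StringTie and hg38, and settings and strand counting are not given in the sources used here. The authors deposited, per gene and library, FPKM and counts. The deposited counts were treated as estimated counts, as 32.5% to 34.4% of those from 1 to 40 were multiples of 4, and were rounded, and the number of fragments behind them is unknown. The GO and KEGG annotation in the deposited table was not used.

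Counts were tested with edgeR 4.0.16 in R 4.3.3 using TMM scaling and the quasi-likelihood F test, after filterByExpr had left 19393 genes. Adjustment was by Benjamini-Hochberg across every gene tested, at a threshold of 0.05. The SE of a log2 fold change was its size divided by the square root of F. FPKM are printed as deposited, and CPM and centred log2 CPM were computed from the counts.

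The 10 genes and the pathway lists were chosen with earlier results of these data known. Besides these, genes named were PTBP1, PTBP2, from each list the 2 lowest p-values among genes reaching 1 FPKM in the higher group, interferon genes with a count, and the 5 genes nearest in pattern to DDX58 and to IFIH1. Alternatives were DESeq2 1.42.0, relative log expression size factors, no filter, limma 3.58.1 on log2(FPKM + 1) and log2(FPKM + 0.1) for genes averaging 1 FPKM or more, or for all genes, a replicate block, number 3 as a covariate, the libraries numbered 1 and 2 alone, counts divided by 4, and leaving out each library. The interaction of label and number and the motif GAAANGAAA were added after the data had been seen. Counts of genes with shControl 1 and 2 lowest were not planned and follow a pattern seen in these data. Simulated counts with known changes were used to test the edgeR code. Python 3.11.15, pandas 2.3.3, numpy 2.4.6 and matplotlib 3.10.9 were used for tables and figures. Values of 1 gene of the pathway lists are not reported here.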

Additional observations from a re-analysis of the deposited data

How the results depend on the processing

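Against 6 genes past the adjusted threshold in edgeR over all 6 libraries, 167 passed in DESeq2, 63 in the libraries numbered 1 and 2, 3 with number 3 as a covariate, 3 in limma without its filter, and 2 to 136 when each library was left out, with 136 without shControl 3. Of the 10 RNA-sensing genes, 1 (DDX58) passed in the libraries numbered 1 and 2 and 0 to 2 when each library was left out, with DDX58 and DHX58 without shControl 3. Of the other pathway genes, 1 (CTSL) passed in DESeq2, 8 in the libraries numbered 1 and 2 and 0 to 11 when each library was left out. The sign changed for TRIM25 in limma (-0.0052 for log2(FPKM + 1) with and without the filter, -0.0053 for log2(FPKM + 0.1)) and when each library was left out for TRIM25 (-0.0081 to 0.074), TBK1 (-0.16 to 0.087) and MAVS (-0.12 to 0.48); the cause was not tested. The other 7 genes kept their sign in all alternatives that tested them. DDX58 ranged from 0.50 to 1.67, IFIH1 from 0.65 to 1.38, DHX58 from 0.41 to 3.11, TLR3 from 0.055 to 0.66, IKBKE from -0.56 to -0.16, IRF3 from 0.094 to 0.51 and ADAR from 0.055 to 0.36. The low ends of DHX58 and TLR3 came from limma on log2(FPKM + 1) without the filter. There the added 1 shrinks changes at such low FPKM. Their lowest values in edgeR and DESeq2 were 1.18 and 0.25. Without shPTBP1 2, IRF3 was at 0.094, ADAR at 0.055 and the median of the 10 genes at 0.11, against 0.28, 0.21 and 0.25 over all libraries, and IKBKE was at -0.16 without shPTBP1 1 and -0.54 without shPTBP1 3. With the filter of limma, DHX58 and TLR3 were not tested. A replicate block left 0 genes past the adjusted threshold in edgeR, with 987 below 0.05 before adjustment, and likewise 0 and 3 of the 10 genes. Deviations of libraries with the same number correlated at -0.01, 0.16 and 0.08. shControl 2 and 3 correlated best with the library of their own number, and shControl 1 with shPTBP1 2, at 0.02. These values do not settle whether the numbers are pairs, and the red-cell sum differed by number in both labels. The main fit has no term for the number, and with number 3 as a covariate 0 of the 10 genes passed in edgeR. Low counts limit DHX58, TLR3 and the interferon genes.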
